A study of Mus musculus with 16 samples.

Results

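The libraries described here are the 4 of splenic B cells from NOD.LT mice fed HAMSB, set against the 4 from mice on the NP diet, chosen by the diet in the labels, 8 of the 16 libraries of the series. NOD.LT mice are a non-obese diabetic line prone to autoimmune loss of insulin-producing cells, and all mice were 15 weeks old and had eaten their diet for 5 weeks. HAMSB is high-amylose maize starch that carries esterified butyrate. The NP diet is the comparison diet, also called Gordons in the labels, which do not give its composition, so the added starch and its butyrate cannot be told apart in this comparison. The other diets were HAMS, the same starch without an added acid, and HAMSA, the starch with acetate. B cells were enriched by binding other spleen cells with antibodies and holding them on a column, and poly(A) RNA was sequenced. The HAMSB libraries carry the numbers 1, 2, 5 and 6 in the labels and the NP libraries 1, 3, 4 and 5. The labels do not tie numbers to animals, so p-values measure the spread between these libraries, which may be technical. The question was whether the butyrylated starch diet goes with another B cell transcriptome than the NP diet.

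Resistant starch escapes digestion in the small intestine and is fermented in the colon, where esterified butyrate is set free. Butyrate enters cells through monocarboxylate carriers, acts on the receptors encoded by Ffar2, Ffar3 and Hcar2, and inhibits histone deacetylases, enzymes that take acetyl groups off histones. A spleen preparation also holds macrophages, which clear old red cells in the red pulp and take up particles from blood in the marginal zone, and T cells, NK cells, neutrophils and platelets. RNA of any such cell that passes the column enters the B cell libraries.

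The libraries held 31707731 to 42752976 counts in NP and 34720317 to 46206200 in HAMSB, and 15021 genes passed the expression filter. Levels are given as CPM, the usual scaling of counts to the library total, with TMM factors. B cell markers were high in all libraries: 6 genes including Ms4a1, the gene of CD20, summed to 9950 to 12033 CPM in NP and 10330 to 11818 CPM in HAMSB. HAMSB 5 stood apart in its reads: 10.2% of them did not map (95% Wilson interval 10.1871% to 10.2028%, counting error only). Unmapped shares were 5.90%, 4.42% and 4.29% in HAMSB 1, 2 and 6 and 3.56% to 3.92% in NP. All HAMSB libraries were thus above all NP libraries, also with HAMSB 5 left out. The summed ribosomal protein genes of HAMSB 5 were 13296 CPM. The other HAMSB libraries held 24916 to 30397 CPM and NP 24484 to 29772 CPM. For results that rest on HAMSB 5, values without it are given as well.

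HAMSB libraries held less RNA of Cd163, Mrc1 and C1qc, which macrophages express, and of Ddit4 than NP libraries, and no gene passed the test in the other direction. The quasi-likelihood test of edgeR, adjusted by Benjamini-Hochberg over all genes, called 11 genes lower (0.0732% of those tested) and 0 higher (0%). At an unadjusted p under 0.05 it counted 530 lower (3.53%) and 505 higher (3.36%). With no difference at all, about 5% of genes would fall under that p, both directions together. Among the called genes whose log2 CPM averaged 1 or more were Cd163, Mrc1, C1qc and Ddit4, and 6 genes of lower level were called, namely Abcc3, Col14a1, Itga9, Dysf, Slc1a3 and Hs3st2. All 4 HAMSB libraries lay below all 4 NP libraries for each of the 11, an order that 460 of all genes had (3.06%), while 332 had the reverse (2.21%).

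**Figure D1:**
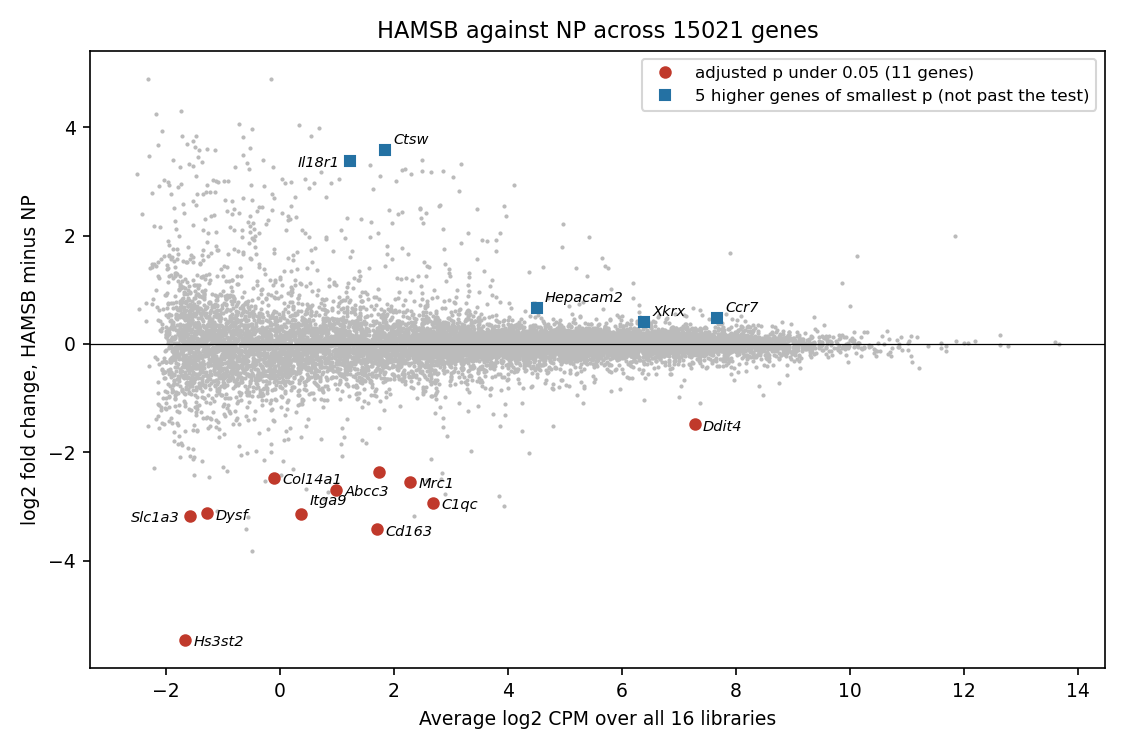
Log2 fold change of HAMSB against NP (vertical axis) by average log2 CPM over the 16 libraries (horizontal axis), 1 point per gene for the 15021 genes tested. The 11 called genes, in red, all lie below 0, and the 5 squares are higher genes of smallest p that did not pass the test.

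The count of 11 rested on single libraries. It was 0 without NP 1, NP 4, HAMSB 2 or HAMSB 5, 1 without NP 3 and 2 without HAMSB 6, and 11 and 14 without NP 5 and HAMSB 1. It was 0 with only the 2 diets in the fit. It was 94 (55 higher and 39 lower) among libraries numbered 1 to 4, with 3 of NP and 2 of HAMSB. Among those numbered 5 and 6 it was 1, Ddit4, with 2 of HAMSB and NP 5 alone, which was assumed to vary like the other diets. DESeq2 called 60 genes lower (0.399%) and 64 higher (0.426%) and limma voom 21 lower (0.14%) and 0 higher, and both included all 11. Without HAMSB 5 edgeR's test called 0, and 440 genes were lower and 574 higher of 15279 at an unadjusted p under 0.05. The 5% expected with no difference applies here too. Over all settings the log2 fold change of Cd163 lay between −4.07 and −2.93, that of Mrc1 between −2.89 and −2.17 and that of Ddit4 between −2.20 and −1.08.

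Sequences upstream of called genes are shown for the pair of scavenger receptors, the complement gene and Ddit4, because these carry the result and have an entry in the RefSeq promoter table (8 of the 10 called genes named here do). Each runs 5′ to 3′ on the gene's strand, 250 bases before to 50 after the annotated start, on GRCm38.p6. Capitals mark matches, on either strand, to GAGGAA, the core of the site of PU.1, a factor of macrophages and B cells, to AGAACA, the glucocorticoid receptor half-site, or to CACGTG, an E-box. No matches share bases.
Cd163, chr6:124304401-124304700, plus strand: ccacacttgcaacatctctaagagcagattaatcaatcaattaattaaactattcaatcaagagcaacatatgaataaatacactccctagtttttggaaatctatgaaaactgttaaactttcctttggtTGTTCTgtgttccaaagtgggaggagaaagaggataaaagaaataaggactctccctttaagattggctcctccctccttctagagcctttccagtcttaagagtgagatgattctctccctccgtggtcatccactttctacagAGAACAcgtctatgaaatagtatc
C1qc, chr4:136892865-136893164, minus strand: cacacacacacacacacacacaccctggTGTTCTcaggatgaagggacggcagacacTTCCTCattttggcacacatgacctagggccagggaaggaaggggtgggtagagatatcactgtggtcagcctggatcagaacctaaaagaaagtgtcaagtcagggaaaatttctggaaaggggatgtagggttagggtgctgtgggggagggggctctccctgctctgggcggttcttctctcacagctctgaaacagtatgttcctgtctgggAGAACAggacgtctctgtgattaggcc
Mrc1, chr2:14229164-14229463, plus strand: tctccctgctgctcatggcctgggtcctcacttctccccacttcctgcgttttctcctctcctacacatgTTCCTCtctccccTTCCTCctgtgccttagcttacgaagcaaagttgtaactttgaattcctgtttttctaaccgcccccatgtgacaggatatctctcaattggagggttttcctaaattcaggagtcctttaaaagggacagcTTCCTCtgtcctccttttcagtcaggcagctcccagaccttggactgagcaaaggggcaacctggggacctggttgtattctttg
Ddit4, chr10:59951721-59952020, minus strand: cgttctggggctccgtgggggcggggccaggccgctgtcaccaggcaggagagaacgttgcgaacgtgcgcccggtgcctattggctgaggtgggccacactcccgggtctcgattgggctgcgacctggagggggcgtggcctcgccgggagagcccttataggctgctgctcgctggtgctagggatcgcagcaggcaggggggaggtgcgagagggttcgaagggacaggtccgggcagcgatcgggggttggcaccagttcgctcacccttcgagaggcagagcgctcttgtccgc

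The window of Mrc1 held 3 PU.1 cores, each on the opposite strand (TTCCTC), and that of C1qc held 1. Glucocorticoid receptor half-sites stood once on each strand (AGAACA and TGTTCT) in the windows of Cd163 and of C1qc. None of the 3 motifs was found in the window of Ddit4, and the E-box in none of the 4 windows. Among all 32851 promoters of the table, 28.28% held a PU.1 core, 18.97% a glucocorticoid receptor half-site and 7.15% an E-box. A match is a description of these letters and not a binding site.

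Cd163 encodes the scavenger receptor through which macrophages take up complexes of haemoglobin and haptoglobin. It stood at 14.3, 8.91, 7.96 and 6.20 CPM in NP 1, 3, 4 and 5, and at 1.83, 0.900, 0.645 and 0.129 CPM in HAMSB 1, 2, 5 and 6. NP 1 was the highest and HAMSB 6 the lowest library, and the diets did not overlap. The log2 fold change was −3.42 ± 0.53 (SE, 95% interval −4.54 to −2.30, adjusted p = 0.0303). The gene lies on chromosome 6 from 124304656 to 124330527 on the plus strand (GRCm38, GENCODE M21).

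Mrc1, the mannose receptor CD206 of tissue macrophages (chromosome 2, 14229392 to 14332057, plus strand), stood at 19.8, 11.4, 10.2 and 8.02 CPM in NP and 3.13, 2.999, 1.49 and 0.863 CPM in HAMSB, in the same order of libraries. Its log2 fold change was −2.54 ± 0.40 (adjusted p = 0.0307). Libraries 5 and 6 of HAMSB were again the lowest. C1qc, a chain of C1q, which starts the classical complement pathway and is made mainly by macrophages (chromosome 4, 136889804 to 136893065, minus strand), stood at 18.1, 17.6, 16.8 and 10.6 CPM in NP. HAMSB libraries held 3.38, 3.09, 0.814 and 0.971 CPM of it (−2.93 ± 0.49, adjusted p = 0.0409). The lowest NP library, NP 5, was still over the highest of HAMSB.

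Calls for these genes were lost in most omissions of a library: of 8, Cd163 kept its call in 3 and Mrc1 and C1qc in 2. Their direction did not change in any omission.

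The 6 called genes of lower level fall outside the rule for naming and were named after their values were seen. Abcc3, an exporter of organic anions such as glucuronide conjugates, stood at 4.91 ± 1.06 CPM (SD, n = 4) in NP and 0.756 ± 0.376 CPM in HAMSB (−2.69 ± 0.39, adjusted p = 0.0303). Itga9, an integrin alpha chain, stood at 3.32 ± 0.854 and 0.378 ± 0.330 CPM (−3.13 ± 0.53, adjusted p = 0.0409), and Col14a1, a fibril-associated collagen, at 2.12 ± 0.781 and 0.375 ± 0.153 CPM (−2.48 ± 0.38, adjusted p = 0.0303). These levels were near the resolution of the libraries for the rest. Dysf, a membrane repair protein, had 29 to 38 counts in NP libraries and 0 to 7 in HAMSB (−3.13 ± 0.54, adjusted p = 0.0436). Slc1a3, a glutamate carrier, had 15 to 39 counts in NP and 2 to 5 in HAMSB (−3.17 ± 0.56, adjusted p = 0.0481). Hs3st2, a heparan sulfate sulfotransferase, had 13 to 43 counts in NP libraries and 0 or 1 in HAMSB, a ratio of 55.5 between the summed and scaled counts with an exact interval of 15.0 to 464 that covers counting error only (adjusted p = 0.0303).

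**Figure D2:**
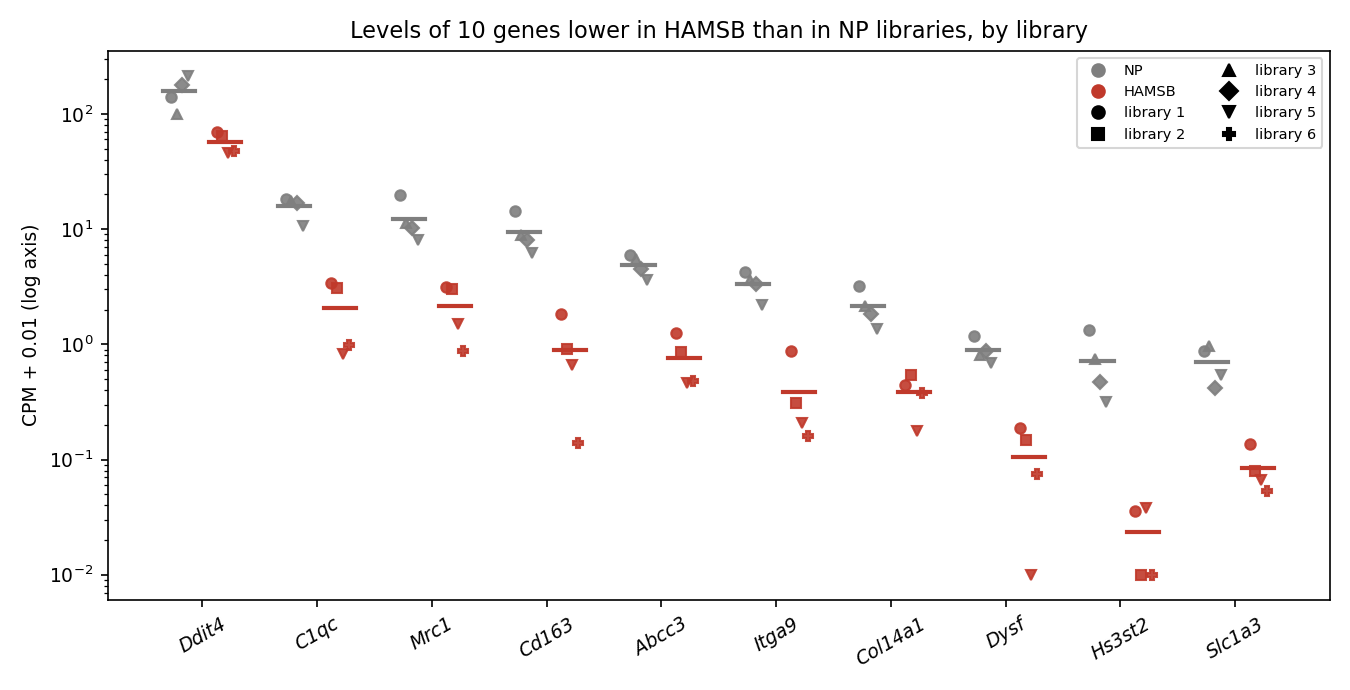
CPM plus 0.01 on a log axis for 10 of the called genes, 1 point per library (shape: number in the labels, colour: diet) with the mean of each diet as a bar. The HAMSB points lie under the NP points for each gene, and for Hs3st2 HAMSB 2 and HAMSB 6 hold no count.

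In the list of 10 macrophage and monocyte markers 1 fell, C1qc, with a median log2 fold change of −0.58, against 0.01 over all genes tested, and 4 of the 10 were lower in HAMSB without overlap between diets (3.06% of all genes). Its sum was 199 to 487 CPM in NP and 143 to 415 CPM in HAMSB, so the ranges overlapped. The other C1q chains, C1qa (−2.77 ± 0.54, adjusted p = 0.0892) and C1qb (−2.50 ± 0.53, adjusted p = 0.129), and Vcam1, an adhesion molecule of red pulp macrophages (−2.98 ± 0.59, adjusted p = 0.0892), did not pass. Csf1r, the receptor for the macrophage growth factor CSF1 (−0.77 ± 0.38), Cd68, of macrophage lysosomes (−0.38 ± 0.20), and Emr1, the F4/80 antigen also named Adgre1 (−0.21 ± 0.21), had adjusted p = 0.762, 0.812 and 0.990 and overlapped. Ccr2, a receptor of blood monocytes, had a value above 0 (0.76 ± 0.56, adjusted p = 0.934).

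A list of 19 genes of red pulp and other splenic macrophages was written after these values were seen and supports nothing. Its members all had lower values in HAMSB, with a median of −2.38, and 2 fell, Cd163 and Mrc1 (0.0732% of all genes fell), while 15 did not overlap (3.06% of all genes). Its median was −2.09 without HAMSB 5. The sum of the list was 399, 311, 251 and 187 CPM in NP 1, 3, 4 and 5, and 137, 145, 62.2 and 57.8 CPM in HAMSB 1, 2, 5 and 6. Vcam1 in it stood at 66.3, 42.2, 32.1 and 24.5 CPM in NP and 11.9, 5.33, 2.27 and 1.40 CPM in HAMSB. Itgad, the CD11d integrin of red pulp macrophages, stood at 17.3 ± 4.87 and 3.32 ± 2.22 CPM (−2.38 ± 0.44, adjusted p = 0.0629). Hmox1, which breaks down haem (−2.00 ± 0.55), and Slc40a1, the iron exporter ferroportin (−1.97 ± 0.57), had adjusted p = 0.257 and 0.295. Spic, a transcription factor of red pulp macrophages that B cells also express, differed least among the non-overlapping members (25.2 ± 2.10 and 20.9 ± 3.22 CPM, −0.27 ± 0.13, adjusted p = 0.762). In these bulk libraries fewer macrophages and less RNA per macrophage cannot be told apart. DESeq2 called 10 of the 19 lower (0.399% of all genes) and limma voom 7 (0.14%), and both called 4 of the 10 macrophage and monocyte markers lower.

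Ddit4, an inhibitor of the growth kinase complex mTORC1 that rises under glucocorticoids and stress (chromosome 10, 59949669 to 59951834, minus strand), was the called gene of highest level. It stood at 140, 101, 180 and 215 CPM in NP 1, 3, 4 and 5 and at 69.6, 64.0, 46.0 and 48.0 CPM in HAMSB 1, 2, 5 and 6, a log2 fold change of −1.48 ± 0.24 (95% interval −1.99 to −0.97, adjusted p = 0.0390). NP 3, the lowest NP library, was above the highest HAMSB library. The difference was −1.08 ± 0.28 among libraries numbered 1 to 4 (adjusted p = 0.131) and −2.20 ± 0.13 among those numbered 5 and 6 (adjusted p = 0.0125). The latter sets NP 5 alone against HAMSB 5 and HAMSB 6, so its error and p rest on the assumption that NP 5 varies like the other diets. Of 8 omissions of a library 2 kept its call, and adjusted p rose to 0.129 without HAMSB 5.

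Ddit4 was the 1 of 15 glucocorticoid response genes that passed, and the list had a median of −0.07 (−0.16 without HAMSB 5), with 10 of 15 lower in value. Tsc22d3, the glucocorticoid-induced leucine zipper, stood at 356, 209, 297 and 417 CPM in NP and 216, 220, 185 and 155 CPM in HAMSB (−0.72 ± 0.25, adjusted p = 0.452). NP 3 alone lay within the HAMSB range. Fkbp5, a co-chaperone of steroid receptors, stood at 149 ± 73.7 and 86.8 ± 35.4 CPM (−0.78 ± 0.34, adjusted p = 0.668), while Per1 (−0.04 ± 0.20) and Sgk1 (0.47 ± 0.20) did not share that direction or size. Sik1, a salt-inducible kinase, stood at 130, 76.0, 113 and 131 CPM in NP and within 52.1 to 54.6 CPM in HAMSB (−1.08 ± 0.29, adjusted p = 0.257). Cebpb, a transcription factor of acute responses and of myeloid cells, stood at 17.8, 14.5, 15.2 and 5.34 CPM in NP and 3.23 to 5.03 CPM in HAMSB (−1.61 ± 0.38, adjusted p = 0.186).

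The same genes were read in the other starch diets, with NP libraries shared between the comparisons. HAMS against NP called 650 genes (4.33%), HAMSA against NP 212 (1.41%) and HAMSB against HAMS 252 (1.68%). Cd163 averaged 0.437 ± 0.197 CPM in HAMS, 2.13 ± 0.575 CPM in HAMSA and 0.876 ± 0.713 CPM in HAMSB, against 9.35 ± 3.51 CPM in NP, with log2 fold changes of −4.39 ± 0.57 for HAMS and −2.15 ± 0.51 for HAMSA (adjusted p = 0.00105 and 0.0495). The level of HAMSB was thus among those of the other starch diets, and HAMSB against HAMS gave 0.98 ± 0.55 (adjusted p = 0.462). Mrc1 stood at 1.39 ± 0.440 CPM in HAMS and 3.31 ± 1.09 CPM in HAMSA (−3.14 ± 0.42 and −1.90 ± 0.40, adjusted p = 0.00111 and 0.0381). For C1qc, HAMSB against HAMS gave −0.14 ± 0.48 (adjusted p = 0.926), which does not show that the diets had the same levels. The 6 called genes of lower level were also called lower in HAMS against NP, with adjusted p from 0.00105 (Abcc3) to 0.0259 (Hs3st2). HAMSA against NP called Abcc3 and Col14a1 among them (adjusted p = 0.0381 and 0.04995). HAMSB against HAMS called none of them, and the smallest adjusted p was 0.224 (Hs3st2).

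Ddit4 had another order over the diets. It stood at 270 ± 11.8 CPM in HAMS, 159 ± 49.3 CPM in NP, 134 ± 45.0 CPM in HAMSA and 56.9 ± 11.7 CPM in HAMSB. HAMS against NP gave 0.77 ± 0.24 (adjusted p = 0.0849) and HAMSA against NP −0.25 ± 0.24 (adjusted p = 0.514), so NP and HAMSA did not differ beyond their spread. Sik1 stood at 345 ± 58.2 CPM in HAMS, 150 ± 91.1 CPM in HAMSA, 112 ± 25.7 CPM in NP and 53.1 ± 1.11 CPM in HAMSB. The means of NP and HAMSA were thus in the reverse of their order for Ddit4. HAMSB against HAMS gave −2.25 ± 0.25 for Ddit4 and −2.70 ± 0.31 for Sik1 (adjusted p = 0.000312 and 0.000356). For both genes all HAMSB libraries were below all libraries of the other diets. The share of all genes with that order was not counted. Ddit4 was picked for being low in HAMSB against NP, and Sik1 was chosen after its values were seen.

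**Figure D3:**
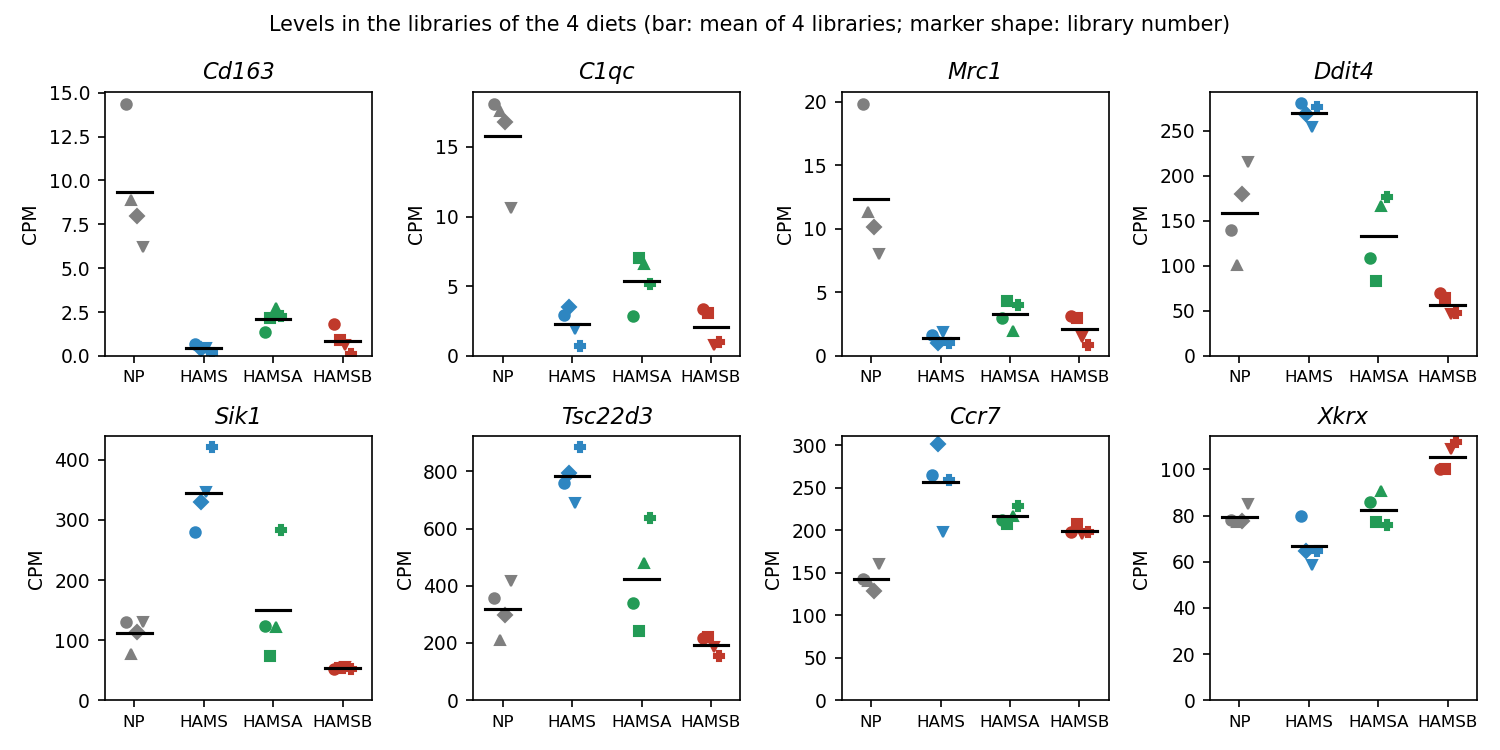
CPM of 8 genes in the libraries of NP, HAMS, HAMSA and HAMSB (points, shape by number in the labels; bar: mean of 4 libraries), on axes that start at 0. Cd163, C1qc and Mrc1 are highest in NP, while Ddit4, Sik1 and Tsc22d3 are highest in HAMS and lowest in HAMSB.

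No gene passed the test as higher in HAMSB. The 5 with the smallest p among genes whose log2 CPM averaged 1 or more all failed it. Ccr7, the chemokine receptor that guides lymphocytes to T cell zones, stood at 142, 140, 129 and 160 CPM in NP and 198, 207, 196 and 197 CPM in HAMSB (0.48 ± 0.11, adjusted p = 0.150). Every HAMSB library was above NP 5, the highest of NP. Hepacam2, a cell adhesion protein of the immunoglobulin superfamily, stood at 15.2 ± 1.13 and 24.2 ± 2.34 CPM (0.67 ± 0.14, adjusted p = 0.122), and Xkrx, of the XK family of membrane proteins, at 79.6 ± 3.71 and 105 ± 6.01 CPM (0.40 ± 0.09, adjusted p = 0.181). Ctsw, cathepsin W of cytotoxic lymphocytes, stood at 0.217 to 1.01 CPM in NP and 1.88 to 13.3 CPM in HAMSB (3.57 ± 0.80, adjusted p = 0.167). Il18r1, a chain of the interleukin 18 receptor, stood at 0.163 to 0.767 and 1.04 to 9.60 CPM (3.38 ± 0.77, adjusted p = 0.172).

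For Ccr7, HAMS against NP gave 0.84 ± 0.11 and HAMSA against NP 0.60 ± 0.11 (adjusted p = 0.00105 and 0.0246), and the mean of HAMSB, 199 CPM, was the lowest of the starch diets. Hepacam2 gave 0.86 ± 0.14 and 0.63 ± 0.14 in those diets (adjusted p = 0.00295 and 0.0439). Ctsw gave 2.02 ± 0.79 and 3.39 ± 0.80 in them (adjusted p = 0.170 and 0.0498). For Il18r1 the values were 1.91 ± 0.76 and 2.94 ± 0.77 (adjusted p = 0.176 and 0.0598). Xkrx was different in that its HAMS mean, 66.9 ± 9.12 CPM, was under that of NP, and HAMSB against HAMS gave 0.65 ± 0.09 (adjusted p = 0.00223).

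Markers of T cells, NK cells and neutrophils had higher values in HAMSB, and none passed the test. All 10 T cell markers were higher in value, with a median of 2.78 and 2 without overlap (2.21% of all genes). They summed to 57.7, 26.1, 21.04 and 19.4 CPM in NP 1, 3, 4 and 5 and to 145, 233, 81.0 and 36.8 CPM in HAMSB 1, 2, 5 and 6. HAMSB 6 lay below NP 1. Trac, the constant chain of the T cell receptor alpha, stood at 0.922 ± 0.676 and 9.61 ± 7.15 CPM (3.39 ± 0.84, adjusted p = 0.210) and Lat, an adaptor of that receptor, at 4.75 ± 0.965 and 17.8 ± 9.64 CPM (1.91 ± 0.46, adjusted p = 0.199). Cd3e, its signalling chain, had 3.25 CPM in NP 1, above the 2.81 CPM of HAMSB 6.

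Of 8 NK cell markers 7 were higher in value (median 3.02), led by Ncr1, the receptor NKp46 (3.97 ± 0.77, adjusted p = 0.0892). These 7 were also higher at an unadjusted p under 0.05 (3.36% of all genes), and 3 did not overlap (2.21% of all genes). The remaining marker had a value of −0.34. The sum of the 8 was 11.9 to 18.6 CPM in NP and 27.1, 65.0, 12.99 and 12.6 CPM in HAMSB 1, 2, 5 and 6, so the last pair lay within the NP range. All 10 neutrophil markers were higher in value (median 2.49) and at an unadjusted p under 0.05, and 1 did not overlap. They summed to 62.1, 10.5, 8.72 and 11.1 CPM in NP and 102, 250, 57.2 and 41.6 CPM in HAMSB. Without HAMSB 2 these medians were 2.19 for T cells, 2.23 for NK cells and 1.74 for neutrophils. DESeq2 called 6 of the 10 T cell, 4 of the 8 NK cell and 1 of the 10 neutrophil markers higher, where it called 0.426% of all genes higher. The sums of all 3 lists overlapped between the diets, and the part of these cells in the other results was not tested. Such values were not particular to HAMSB. HAMSA against NP gave 3.29 ± 0.84 for Trac, 3.01 ± 0.80 for the NK cell marker Nkg7 and 2.89 ± 0.88 for the neutrophil marker S100a9. Their adjusted p were 0.0584, 0.0604 and 0.0826. HAMS against NP gave 1.67 ± 0.81, 1.33 ± 0.78 and 0.80 ± 0.85, and HAMSB against NP 3.39 ± 0.84, 3.11 ± 0.79 and 2.22 ± 0.86.

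Platelet markers were lower in value for all 8 (median −0.48), with a sum of 64.8 to 193 CPM in NP and 71.4 to 180 CPM in HAMSB, and a median of 0.99 among libraries numbered 5 and 6. The sum of erythroid markers was 122 to 1396 CPM in NP and 96.0 to 1485 CPM in HAMSB. Dendritic cell markers summed to 56.5 to 115 CPM in NP and 44.4 to 95.2 CPM in HAMSB (median −0.25, none past the test). Within each diet the libraries numbered 5 and 6 held the least of the dendritic, macrophage and erythroid markers.

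**Figure D4:**
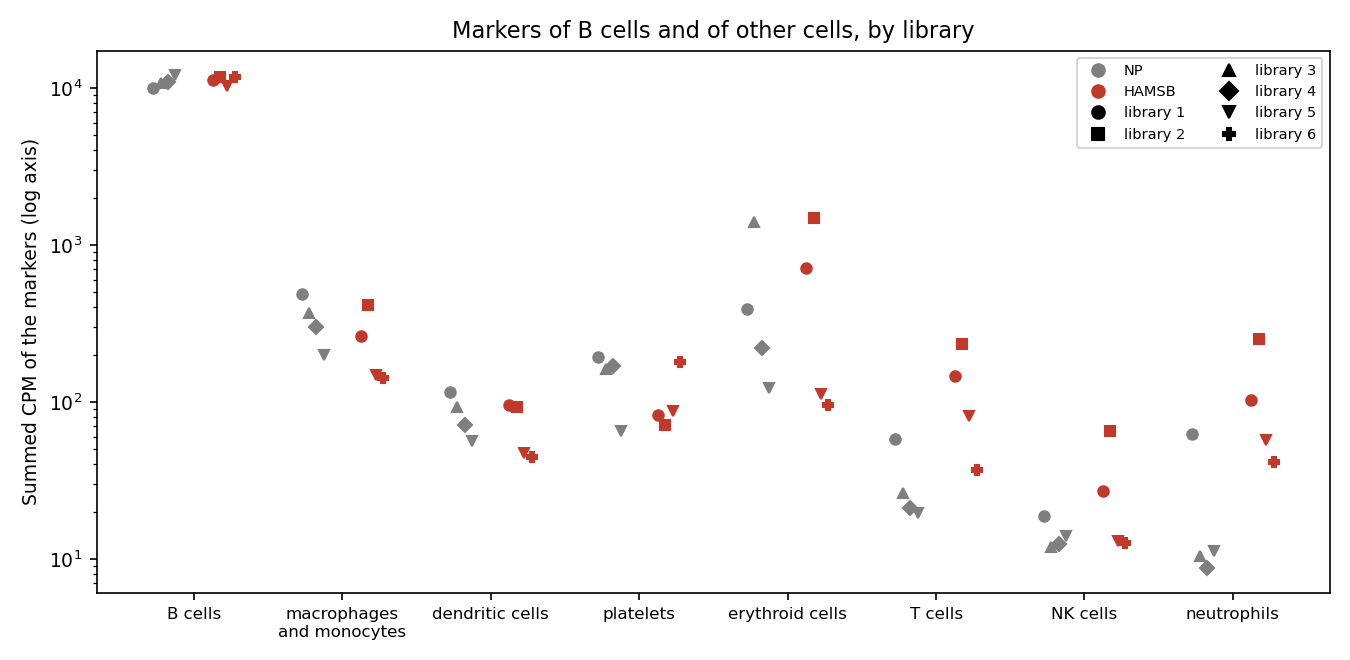
Summed CPM of marker genes on a log axis for B cells and for 7 other kinds of cells, 1 point per library (shape: number in the labels, colour: diet). B cell markers stay at 9950 to 12033 CPM, T cell and neutrophil sums are higher in HAMSB except where NP 1 meets the lowest HAMSB libraries, and macrophage sums overlap.

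Genes of butyrate sensing and uptake showed no difference that passed. Of 17 receptors, carriers and related genes, 12 passed the expression filter, 7 with higher and 5 with lower values (median 0.07, and −0.02 without HAMSB 5). Ffar2, a receptor for acetate, propionate and butyrate, stood at 24.9, 28.9, 31.1 and 34.1 CPM in NP and 23.8, 27.0, 1.71 and 16.1 CPM in HAMSB 1, 2, 5 and 6 (−0.79 ± 0.59, adjusted p = 0.935). HAMSB 5 was the lowest, and without it the value was −0.42 ± 0.45 (adjusted p = 0.947). Ffar3, a related receptor, was at most 1.19 CPM in any library of either diet (0.24 ± 0.40), and Hcar2, the butyrate and niacin receptor listed as Niacr1, at most 1.22 CPM (−0.88 ± 0.68), with adjusted p = 0.999 and 0.947. The monocarboxylate carriers Slc16a1 (10.2 ± 3.66 and 14.7 ± 7.17 CPM, 0.53 ± 0.34) and Slc16a3 (1.0 ± 0.272 and 1.64 ± 0.894 CPM, 0.72 ± 0.37) had adjusted p = 0.891 and 0.784.

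Histone deacetylase and sirtuin genes had a median of −0.0012 (−0.07 without HAMSB 5) over 27 members, 13 higher and 14 lower in value, with none past the test or at an unadjusted p under 0.05. Hdac1 stood at 55.1 ± 3.53 CPM in NP and 55.1 ± 4.35 CPM in HAMSB (95% interval of the log2 fold change −0.19 to 0.18), and Hdac3 at 73.6 ± 5.18 and 75.6 ± 5.73 CPM (0.04 ± 0.11, 95% interval −0.20 to 0.28). These are transcript levels and say nothing of enzyme activity. Lists of acetate and butyrate use (16 tested, median 0.03), fatty acid oxidation (24, 0.01), glycolysis (21, 0.02) and nuclear oxidative phosphorylation (73, −0.02) had no called member either. Without HAMSB 5 the medians of these 4 lists were 0.05, 0.04, 0.06 and 0.10.

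No list of B cell genes held a member called by edgeR's test. DESeq2 called 1 member higher in each list of transitional, B-1, BAFF, APRIL and TNF receptor and SLAM receptor genes. It called 1 member lower in each list of germinal centre and age-associated B cell genes. Over all genes it called 0.426% higher and 0.399% lower. Ms4a1 stood at 1205 ± 280 CPM in NP and 1400 ± 210 CPM in HAMSB (0.22 ± 0.20, 95% interval −0.22 to 0.65). Cd86, a costimulatory ligand that rises on activated B cells, stood at 58.5 ± 8.16 and 65.2 ± 8.81 CPM (0.16 ± 0.16, adjusted p = 0.990). None of 33 B cell receptor signalling genes, 25 B cell identity factors, 19 genes of MHC class II presentation and 19 germinal centre genes passed, with medians of −0.06, −0.01, 0.00 and −0.09. The median 95% interval of a gene reached 0.377 to either side on the log2 scale. For genes of an average log2 CPM of at least 5 it was 0.258. These intervals are for single genes and are not adjusted over all genes. Larger differences also failed the adjusted test, such as Hepacam2 (0.67) and Apoe (−0.78), so lists without a called member may still hold differences.

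Marginal zone genes, of the B cells that face blood-borne antigens, had 17 of 24 lower values (median −0.35) and none past the test. At an unadjusted p under 0.05, 3 were lower (3.53% of all genes) and 1 higher (3.36%). Without overlap, 5 were lower (3.06% of all genes) and 1 higher (2.21%). The sum of the list was 7009, 7177, 7748 and 7907 CPM in NP and 6869, 7002, 5302 and 6650 CPM in HAMSB 1, 2, 5 and 6, and the median was −0.15 without HAMSB 5. Cr2, the complement receptor CD21, stood at 2571, 2405, 2790 and 2937 CPM in NP and 2237, 2327, 1683 and 2222 CPM in HAMSB (−0.34 ± 0.16, adjusted p = 0.748), without overlap. Dtx1, a regulator of Notch signalling, was at 481 to 618 CPM in NP and at 460, 491, 169 and 376 CPM in HAMSB (−0.57 ± 0.30, adjusted p = 0.807). Cd1d1, which presents lipids and is high on marginal zone B cells, was at 179 ± 21.01 and 136 ± 38.1 CPM (−0.39 ± 0.20, adjusted p = 0.792). HAMSB 5, the library of the large unmapped share, was the lowest for all 3 genes, and without it their values were −0.24 ± 0.17, −0.33 ± 0.25 and −0.24 ± 0.19 (adjusted p = 0.893, 0.903 and 0.914).

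Follicular and homing genes had 18 of 23 higher values (median 0.11), with 7 higher at an unadjusted p under 0.05 (3.36% of all genes) and 6 without overlap (2.21% of all genes), and none past the test. Ccr7, given above, belongs to this list. S1pr4, a receptor for sphingosine 1-phosphate, stood at 84.8, 98.6, 82.0 and 90.3 CPM in NP and 122, 119, 134 and 122 CPM in HAMSB (0.48 ± 0.12, adjusted p = 0.235). T cells express Ccr7 too. In HAMSB 1, 2, 5 and 6 the T cell sum was 145, 233, 81.0 and 36.8 CPM. Ccr7 was 198, 207, 196 and 197 CPM in the same libraries. The part of T cells in the Ccr7 value was not tested. DESeq2 called 2 of the 23 higher (0.426% of all genes). Fcer2a, the CD23 antigen of follicular B cells, stood at 930 ± 131 and 1046 ± 258 CPM (0.17 ± 0.18, adjusted p = 0.992), and Bcl6, the repressor that germinal centre B cells need, at 118 ± 12.03 and 154 ± 31.9 CPM (0.39 ± 0.16, adjusted p = 0.627).

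Type I interferon genes had 35 of 38 higher values (median 0.39), with 8 higher at an unadjusted p under 0.05 (3.36% of all genes) and none past the test. HAMSB 2 set that median: the sum of the list was 3355 CPM in it, 2274 to 2531 CPM in the other HAMSB libraries and 2235 to 2427 CPM in NP, and the median was −0.04 without it and 0.57 without HAMSB 5. Ifi47, an interferon-induced GTPase, stood at 55.98, 48.2, 43.4 and 48.9 CPM in NP and 60.8, 92.8, 63.6 and 61.7 CPM in HAMSB (0.51 ± 0.14, adjusted p = 0.257). Cell cycle genes had 39 of 40 higher values (median 0.36) and none past the test. Their sum was 886 to 1059 CPM in NP and 1273, 1528, 829 and 920 CPM in HAMSB 1, 2, 5 and 6. The first pair was above NP and the last pair within or below its range, and the median was 0.11 without HAMSB 2, 0.56 without HAMSB 5 and −0.11 among libraries numbered 5 and 6.

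Heat shock chaperones had no called member among 22 tested (median −0.14, and −0.06 without HAMSB 5, 13 lower in value). Their sum did not overlap, at 3818 to 4476 CPM in NP and 3107 to 3789 CPM in HAMSB. This was not particular to them. The sums of marginal zone and age-associated B cell genes were also lower without overlap, and that of cholesterol synthesis genes higher, by narrow gaps. Hsp90ab1, a constitutive HSP90 (−0.44 ± 0.21, adjusted p = 0.721), and Hspb1, the small chaperone HSP27 (−1.35 ± 0.45, adjusted p = 0.429), were among the lower values. Hspa1b, an inducible HSP70 that shares reads with its near-identical neighbour Hspa1a, was at 1.16 ± 0.540 and 0.591 ± 0.183 CPM (−0.96 ± 0.88). Immediate early genes were 18 higher and 12 lower of 30 in value, with Fos, a subunit of the AP-1 factor, at 1.08 to 1.56 CPM in NP and 1.77 to 6.59 CPM in HAMSB (1.52 ± 0.71, adjusted p = 0.714). Per3, a gene of the circadian clock, stood at 15.4 to 21.4 CPM in NP and 10.4 to 14.6 CPM in HAMSB (−0.59 ± 0.14, adjusted p = 0.193). Apoe, a lipid carrier of macrophages that is also a marker of age-associated B cells, stood at 39.8 to 50.6 CPM in NP and 23.3 to 29.3 CPM in HAMSB (−0.78 ± 0.17, adjusted p = 0.129).

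**Figure D5:**
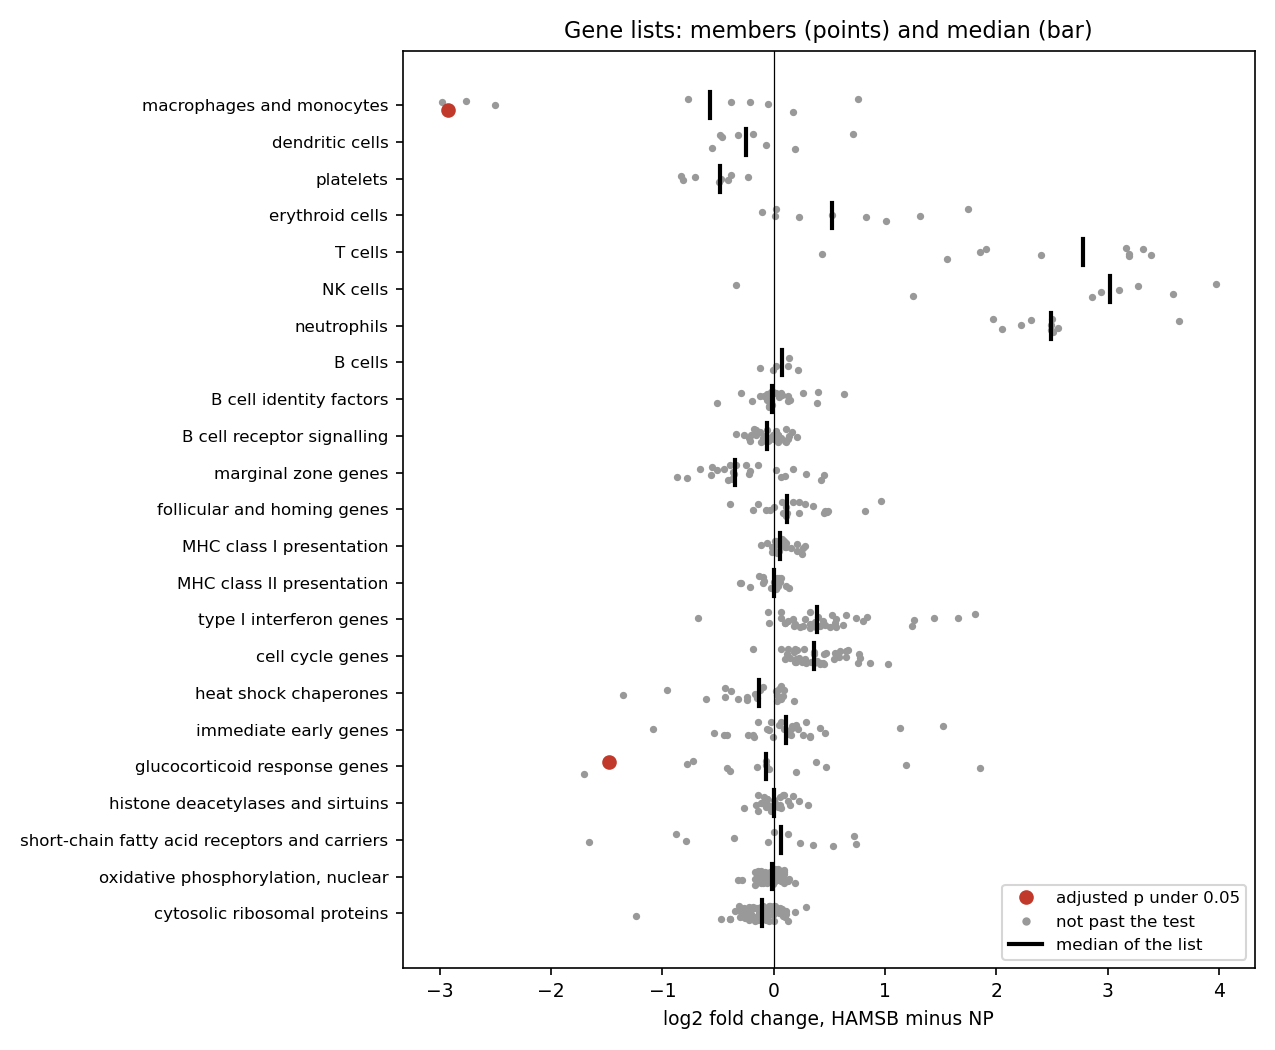
Log2 fold change of HAMSB against NP for the members of 23 gene lists (points; red where adjusted p was under 0.05) with the median of each list as a bar. T cell, NK cell and neutrophil medians lie above 2 with no member past the test, and members of the macrophage list run from −2.98 to 0.76. Medians of the B cell lists lie near 0, apart from that of marginal zone genes at −0.35.

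Apart from C1qc and Ddit4, no member of any of the 46 lists passed edgeR's test. These lists hold 1038 entries and cover further B cell states, signalling, presentation, metabolism and stress responses, such as 26 unfolded protein response genes (median −0.01), 26 NF-κB genes (0.00), 26 plasma cell genes (0.01) and 24 cholesterol synthesis genes (0.07). With a threshold of 0.1 for the adjusted p, 20 genes were counted, 4 of them higher in HAMSB. Those 4, named after their values were seen, were Ncr1, the T cell receptor segments Trbv1 and Trbv16, and Ppm1j, a phosphatase, all of low level.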

How the data were processed

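The submitters' processing notes name STAR, featureCounts of Subread, edgeR and limma. Their versions, the genome build and the annotation are not given in the sources used here. For each of the 39179 genes the authors deposited unscaled read counts per library, beside a summary of the counting. Multi-mapping reads stayed out of the counts, which lowers genes with near-identical copies. In R 4.3.3, edgeR 4.0.16 was fitted to all 16 libraries with 1 mean per diet (12 residual degrees of freedom), TMM scaling and its expression filter (minimum count 10). HAMSB was compared with NP by the quasi-likelihood F-test, adjusted by Benjamini-Hochberg over all genes (threshold 0.05). SE and intervals come from this fit, and the script was checked on simulated data. DESeq2 1.42.0 and limma voom 3.58.1 were alternatives. Of the identifiers 37607 matched GENCODE M21, and 253 symbols are duplicated.

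The comparison, gene lists and tests were chosen with earlier results of these data known. Named genes passed, did not overlap between diets and averaged 1 or more on the log2 CPM scale (the 12 largest rises and falls, filled to 5 by smallest p where fewer passed), without immunoglobulin segments, model names and pseudogenes. Up to 4 called members per list and 9 single genes were added (Ffar2, Ffar3, Hcar2, Slc16a1, Slc16a3, Hdac1, Hdac3, Cd86 and Ms4a1). Other genes named were chosen after their values were seen. Ighd, Iglc1 and Iglc3 of the lists were not analysed here, and values of some genes are not reported here. Libraries of a diet differed by more than sampling noise (chi-square per degree of freedom at least 10.4).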

Additional observations from a re-analysis of the deposited data

Results flagged for a closer look

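Some values stood far from the other 3 libraries of their diet, by the gap to the nearest library relative to the range of the diet. Of 150 groups of 4 libraries tested, 8 were so marked, where chance marks about 1 in 20. Of these, 4 concern NP 1. It held 14.3 CPM of S100a8 and 23.7 CPM of S100a9, the neutrophil calprotectin genes, against 1.14 to 2.33 and 2.71 to 4.44 CPM in the other NP libraries. Its neutrophil markers summed to 62.1 CPM, against 8.72 to 11.1 CPM, and its Cd3e was 3.25 CPM, against 0.487 to 0.568 CPM. Xkrx was 85.1 CPM in NP 5, against 77.4 to 78.1 CPM. In HAMSB, Cr2 was 1683 CPM in HAMSB 5, against 2222 to 2327 CPM, Ifi47 was 92.8 CPM in HAMSB 2, against 60.8 to 63.6 CPM, and platelet markers summed to 180 CPM in HAMSB 6, against 71.4 to 87.7 CPM.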

How the results depend on the processing

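The count of 11 genes became 124 with DESeq2, 21 with limma voom, 7 with a filter of 1 CPM in 4 libraries, 43 with the reads outside exons as a covariate, 94 with only numbers 1 to 4, 1 with only numbers 5 and 6, and 0 with only HAMSB and NP libraries, in that fit also without HAMSB 5 (an alternative chosen after seeing the data). Omitting 1 library at a time gave 0 to 14. The numbers 1 and 5 are the only ones that both diets share, and the deviations of those pairs correlated at 0.211 and 0.181. The labels tie no number to an animal or a batch and 2 pairs are too few to settle a pairing, so no block was used above. Some libraries with different numbers correlated as much, such as NP 1 with HAMSB 2 at 0.314 and NP 5 with HAMSB 6 at 0.389. With the shared numbers included, NP 1 and NP 3 correlated at 0.211 to 0.314 with HAMSB 1 and HAMSB 2. With HAMSB 5 and HAMSB 6 they correlated at −0.382 to −0.160. For NP 4 and NP 5 these ranges were −0.373 to −0.247 and 0.181 to 0.399. With the replicate block 5 genes were called, 3 of them among the 11, and adjusted p was 0.311 for Ddit4, 0.0611 for Cd163 and C1qc and 0.0400 for Mrc1. RLE scaling, library totals without TMM and leaving out immunoglobulin genes each gave the same 11, robust dispersion 10 and no filter 15. The cause of these changes was not tested. Directions of single genes turned 15 times. Hdac1 was 0.022 without immunoglobulin genes, 0.056 with the replicate block and −0.053 (without HAMSB 5) to 0.039 (without HAMSB 2) over the omissions. Hdac3 was −0.15 within numbers 5 and 6 and −0.0066 (without NP 1) to 0.078 (without HAMSB 5) over the omissions. Ms4a1 was −0.062 with the replicate block and −0.16 within numbers 5 and 6, and Emr1 0.037 within numbers 5 and 6. Within numbers 1 to 4, Ffar3 was −0.013, Cd86 −0.0044 and Fcer2a −0.16. Of the other values for single genes, 1179 kept direction and side of the threshold, 104 lost a call and 63 gained one. With 4 libraries a diet and 22.1% variation between libraries, the median interval of 0.377 is not a limit of detection. It is not adjusted over all genes, and larger differences also failed the adjusted test.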
